A study of Homo sapiens with 16 samples.

Results

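The genes described here are the human semaphorins, plexins, neuropilins, Eph receptors, ephrins, netrins, and the netrin receptors DCC and UNC5, measured by RNA sequencing in SH-SY5Y cells. Protein-coding gene symbols were matched to patterns for these families, with SLIT and ROBO genes left out, which gave 64 genes of the 69222 gene rows of the count table. They are 20 semaphorins, 9 plexins, 2 neuropilins, 9 EphA and 5 EphB receptors, 5 ephrin-A and 3 ephrin-B ligands, 6 netrins, and DCC with 4 UNC5 receptors. Of the 64, 55 had enough counts to be tested among 18081 genes.

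SH-SY5Y cells are an established human neuroblastoma line of the sympathetic nervous lineage that can be driven towards a neuron-like state. The 16 libraries form 8 groups of 2. Untreated cells and a group of differentiated cells, called plate below, were kept in culture plates. Differentiation on films that conduct electricity gave the other 6 groups. These were P(rGO), which combines a polymer with reduced graphene oxide, PEDOT:PSS, in which the conductor PEDOT is mixed with a second polymer, and ITO (indium tin oxide), each with and without electrical stimulation. In the differentiated groups serum was stepped down to 5%, 2.5% and 1% on days 2, 3 and 5. Retinoic acid at 10 µM was present between days 3 and 6, and the neurotrophin BDNF at 50 ng/mL for the following 4 days. Stimulated cells received a square wave between 0 and 0.1 V at 1 Hz for 8 h a day on the last 4 days. The labels give poly-L-lysine and laminin as the coat of the films and no coat for the plates, so film and coat cannot be told apart in a comparison with plates.

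Class 3 semaphorins are secreted and act on cells through a neuropilin, which binds the ligand, and a plexin, which carries the signal inside. The other semaphorins of vertebrates are membrane-bound and mostly bind plexins directly. Ephrins are cell-surface ligands whose Eph receptors are tyrosine kinases, with signals running into both cells at a contact, and netrins attract growth cones through DCC and repel them through UNC5 receptors. In the sympathetic lineage these systems are known for steering neural crest migration and axon growth.

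Libraries held 15600410 to 20851000 counts in genes. The biological coefficient of variation between replicates was 36.2% in the untreated group, 18.1% in the plate group, and from 6.88% to 18.1% over the 6 film groups. Whether the 2 libraries of a group are separate cultures is not stated in the labels. The p-values measure no more than the spread between such libraries, which may be technical. The test pools the spread of each gene over the 8 groups. Standard errors and p-values that involve untreated cells can therefore understate the spread of that pair, which was the widest. The sympathetic neuroblast marker HAND2 was present in every group, with group means of 850 to 1600 CPM (counts scaled to library size). Group means of TH were 4.94 CPM or less, the highest being that of stimulated P(rGO) (SD 5.9, n = 2). CHGA, another such marker, was listed at 0 in every library, and ZYX, a gene of focal adhesions, reached no more than 15 counts in a library. A gene listed at 0 or near it is therefore not read as silent. In whole cultures, fewer cells of a type and less RNA per cell cannot be told apart.

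Levels between genes were compared as CPM per kilobase of annotated exon, averaged over the 16 libraries. The most abundant per length was EFNB3, an ephrin-B ligand, at 52.2. Next came UNC5B, a netrin receptor that mediates repulsion, at 48.9, PLXNB2, a plexin for class 4 semaphorins, at 48.1, and EFNB2 at 46.8. Neighbours in this order overlapped: in untreated cells EFNB3 stood at 39.1 ± 2.14 and EFNB2 at 39.8 ± 9.53 CPM per kilobase (SD, n = 2). PLXNB1 (30.0), PLXNA2 (28.0), UNC5A (27.4), EFNA2 (26.8), UNC5C (26.4) and SEMA6C (21.5) followed. Without the division by length, 13 of the tested genes had a mean of at least 100 CPM, 23 lay between 10 and 100, 16 between 1 and 10, and 3 below 1.

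**Figure D1:**
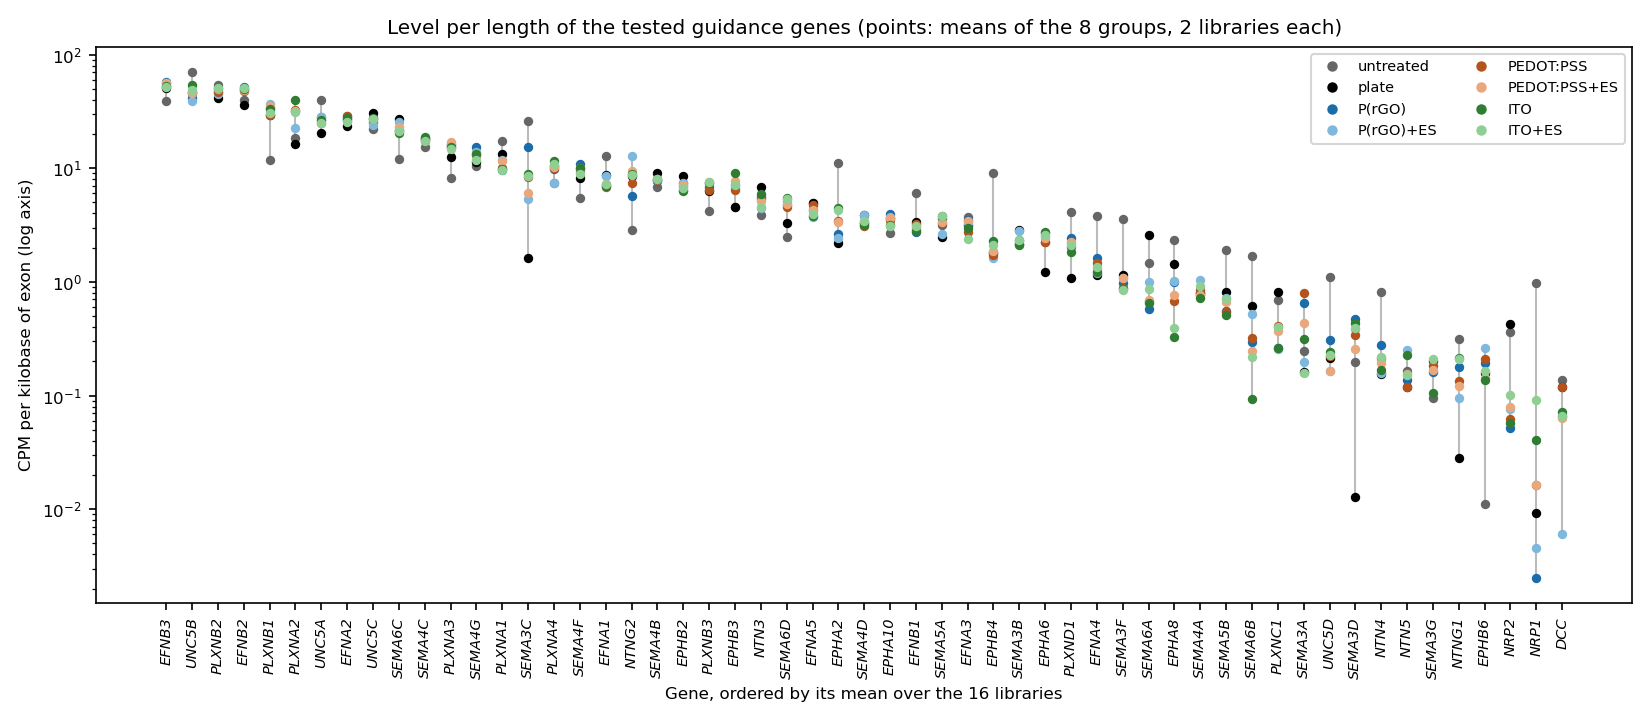
Level of the 55 tested guidance genes in CPM per kilobase of exon on a log axis, ordered by the mean over the 16 libraries; each point is the mean of 1 of the 8 groups (2 libraries). EFNB3, UNC5B, PLXNB2 and EFNB2 lie at the top, at 46.8 to 52.2 on average, and SEMA3C, SEMA3D, NRP1 and EPHB4 are among the genes whose group means spread most widely.

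Another 9 genes had too few counts for a test. EPHA1, EPHA3 and SEMA7A were listed at 0 in every library, and 6 others, EPHA4, EPHA5, EPHA7, EPHB1, NTN1 and SEMA3E, reached low counts only. NTN1, the classical netrin ligand, had 23 counts over all 16 libraries. SEMA3E, a class 3 semaphorin, had 6, and EPHB1, an EphB receptor, had 13. The count filter keeps a gene that is high in only 1 group, and such a gene had to differ between groups to be tested, so counts among the 55 describe the tested genes and not the families.

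The first comparison was between differentiated and untreated cells on plates. A neuropilin, several secreted semaphorins and 2 kinase receptors were much lower after differentiation, while the membrane-bound SEMA6C and the plexin PLXNB1 were higher. By edgeR's quasi-likelihood test with Benjamini-Hochberg adjustment over all 18081 genes, 11 of the 55 rose, against 13.8% of all tested genes, and 15 fell, against 15.8%. The median log2 fold change was -0.17 for the 55 and -0.01 for all genes, and the median size of change 0.59 and 0.48.

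NRP1, the neuropilin that binds SEMA3A, had 17.8 and 4.66 CPM in the untreated libraries and 0.163 and 0.0499 CPM on plates. The plate values rest on 3 and 1 counts. The log2 fold change was -6.66 (SE 0.99, adjusted p = 0.0005), and the ratio of counts, untreated over plate, was 109 (95% interval of the counts 42.1 to 401). All 12 film libraries were also below both untreated ones, at 0 to 1.69 CPM with a median of 0.141. NRP2, the neuropilin that binds SEMA3C and SEMA3F, stood at 6.27 and 3.87 CPM untreated and at 5.75 and 6.19 CPM on plates, and these ranges overlap.

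SEMA3C, a secreted semaphorin that signals through neuropilins, had 133 and 194 CPM in untreated cells and 12.3 and 8.19 CPM on plates. It fell by 4.00 on the log2 scale (SE 0.35, adjusted p = 1.8e-05), the smallest p among the 55. SEMA3D went from 2.31 and 0.908 CPM to 0.109 and 0.0999 CPM, the plate values being 2 counts each (log2 fold change -3.87, SE 0.76, adjusted p = 0.0026). SEMA3F, a ligand of NRP2, fell from 17.0 and 17.8 to 5.59 and 5.54 CPM, at a log2 fold change of -1.64 (SE 0.29, adjusted p = 0.0014). The untreated and plate libraries did not overlap for any of these 3 ligands. SEMA3A, SEMA3B and SEMA3G did not pass the test.

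Among membrane-bound semaphorins, SEMA6C, which had the highest mean CPM of all semaphorins, rose from 67.6 and 72.3 to 134 and 178 CPM, at a log2 fold change of 1.16 (SE 0.14, adjusted p = 0.00014). SEMA6A, a ligand of A-class plexins, went from 18.2 and 14.0 to 35.0 and 20.97 CPM, at a log2 fold change of 0.79 (SE 0.25, adjusted p = 0.027). That call was lost without untreated replicate 2 or plate replicate 1, at an adjusted p of up to 0.29. SEMA6D, SEMA4F and SEMA4B rose by 0.42, 0.59 and 0.41 on the log2 scale. These calls were lost without plate replicate 2 for all 3 genes, without untreated replicate 2 for SEMA6D and SEMA4B, and without plate replicate 1 for SEMA6D. SEMA5B fell by 1.22 (SE 0.26). SEMA6B, of the same class as SEMA6A, was at 2.60 and 12.3 CPM untreated and 1.95 and 3.45 CPM on plates, groups that overlap, and did not pass (log2 fold change -1.46, SE 0.59, adjusted p = 0.077). SEMA4C, the most abundant of class 4, was at 96.0 and 94.1 CPM before and 105 and 118 CPM after, and did not pass.

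PLXNB1, the receptor of SEMA4D, rose from 128 and 100.0 to 237 and 337 CPM, at a log2 fold change of 1.33 (SE 0.18, adjusted p = 0.00028). PLXNA3 rose by 0.61, a call lost without untreated replicate 1 or plate replicate 2, and PLXND1, a receptor of class 3 semaphorins, fell by 1.93 (SE 0.39, adjusted p = 0.0029), from 31.4 and 48.8 to 9.12 and 11.9 CPM. PLXNA2, the most abundant plexin by CPM, was at 253 and 254 CPM untreated and 174 and 278 CPM on plates, a range that spans the untreated values.

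Of the Eph receptors, EPHB4, which binds EFNB2, fell from 63.1 and 54.3 to 11.6 and 11.7 CPM, at a log2 fold change of -2.34 (SE 0.22, adjusted p = 2.2e-05). EPHA2, a receptor of ephrin-A ligands, fell from 41.3 and 50.1 to 9.39 and 9.09 CPM, at a log2 fold change of -2.31 (SE 0.35, adjusted p = 0.00054). These groups stand well apart, and both results held with each of the 4 libraries left out in turn. EPHB6, a receptor without kinase activity, had 2 counts in the untreated group and 33 on plates, which is a 14.3-fold ratio (95% interval of the counts 3.67 to 123). Its call (adjusted p = 0.028) was lost without untreated replicate 2 or plate replicate 2. EPHB2 and EPHA10, the most abundant of their classes by CPM, did not pass.

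Of the ephrins, EFNA4, EFNB1 and EFNA1 fell by 1.72 (SE 0.40), 0.84 (SE 0.24) and 0.55 (SE 0.17) on the log2 scale. The EFNB1 call was lost without plate replicate 2, and that of EFNA1 without untreated replicate 2 or either plate library. EFNB2, the most abundant ligand of the B class by CPM, was at 166 and 233 CPM untreated and 166 and 194 CPM on plates, and EFNA2 at 31.7 and 23.1 against 20.1 and 24.9 CPM. Neither passed.

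The 2 netrin-G proteins, which are anchored to the membrane and bind NGL proteins in place of DCC, went opposite ways. NTNG1 fell from 4.38 and 1.39 to 0.217 and 0.300 CPM, at a log2 fold change of -3.44 (SE 0.67, adjusted p = 0.0026), and NTNG2 rose from 24.6 and 20.3 to 52.4 and 80.5 CPM, at a log2 fold change of 1.57 (SE 0.30, adjusted p = 0.0022). NTN4, a secreted netrin that binds laminin, fell by 2.39 (SE 0.45) and NTN3 rose by 0.83 (SE 0.29), a call lost without untreated replicate 2 or plate replicate 2. Among receptors UNC5D fell by 2.39 (SE 0.54), UNC5A by 0.99 (SE 0.22), and UNC5C rose by 0.45 (SE 0.13). The UNC5D call was lost without plate replicate 2, at an adjusted p of 0.076, and the UNC5C call without untreated replicate 2 or either plate library, at up to 0.081. UNC5B and DCC did not pass, at adjusted p-values of 0.053 and 0.86.

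Left out 1 at a time, the 4 libraries gave log2 fold changes from -7.63 (without plate replicate 1) to -5.40 (without untreated replicate 1) for NRP1. Without untreated replicate 1 those of NTNG1 and EFNA4 were -2.40 and -1.01, and without plate replicate 1 that of UNC5D was -3.25. A fit of only these 4 libraries called 5 of the 55 and 320 of all genes, against 5353 of all genes with the 16 libraries, and leaving out plate replicate 2 called 17 and 1767. Other markers moved with this comparison: 9 of 12 tested markers of mesenchymal neuroblastoma cells and fibroblasts fell and none rose, their summed level going from 549 to 760 CPM untreated to 238 to 261 CPM on plates. PRRX1, a defining marker of that state, was at 0 in both groups. All 8 proliferation genes fell, from a sum of 1500 to 2330 CPM to 356 to 644 CPM. Of 9 tested sympathetic neuroblast markers 2 rose and 3 fell, with sums of 5800 to 6360 CPM untreated and 5190 to 5310 CPM on plates. The part of these lists in the results for guidance genes was not tested.

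**Figure D2:**
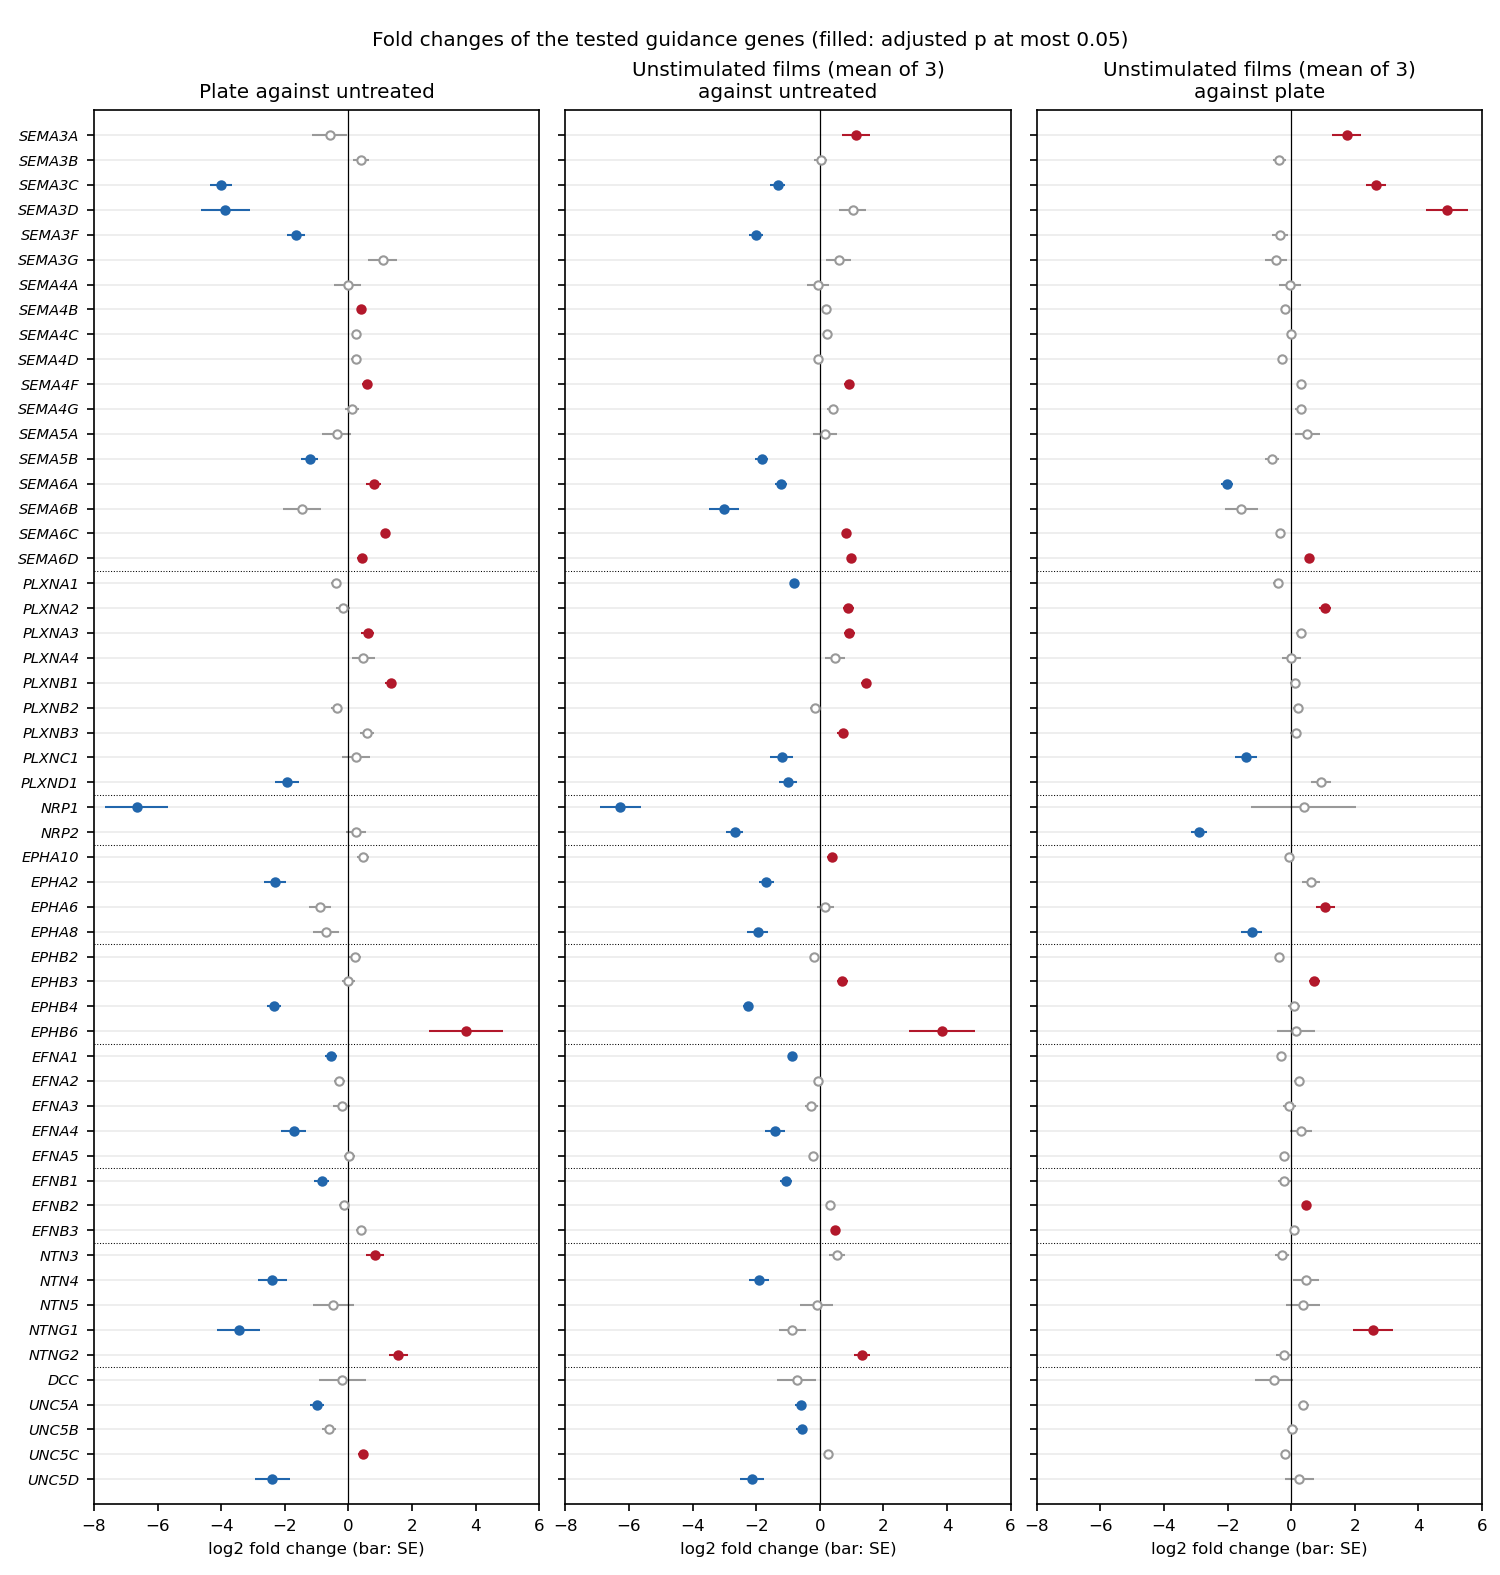
Log2 fold change (point) and SE (bar) of the 55 tested guidance genes, by family, for plate against untreated, the mean of the 3 unstimulated films against untreated and the same mean against plate; filled points passed at an adjusted p of 0.05. NRP1 lies at -6.66 and -6.27 in the first 2 panels, and SEMA3D at 4.90 and NRP2 at -2.91 in the third.

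Cells on unstimulated films were compared with the same untreated libraries, as the mean of the 3 films. Here 13 of the 55 rose, against 20.4% of all genes, and 20 fell, against 24.3%. The comparison shares its untreated libraries with the plate comparison, so values are given side by side. EPHB4 was lower by 2.24 (SE 0.16, adjusted p = 5e-07) where the plate difference was -2.34, NRP1 by 6.27 (SE 0.64) against -6.66, and SEMA3F by 1.99 (SE 0.22) against -1.64. The 6 unstimulated film libraries held EPHB4 at 10.2 to 16.6 CPM, with a median of 11.99, below both untreated libraries. The level of SLC12A9, whose exons overlap those of EPHB4 by 69 bp on the other strand, was 57.8 CPM untreated and 59.3 to 77.9 CPM in the other groups.

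NRP2, which did not pass on plates, fell by 2.68 on films (SE 0.26, adjusted p = 4.8e-06). SEMA3C fell by 1.32 (SE 0.24, adjusted p = 0.00052), and SEMA6A fell by 1.22 (SE 0.20) although it was higher on plates. SEMA3D was at 1.04 (SE 0.42, adjusted p = 0.06) and did not pass. SEMA6B, a ligand of A-class plexins, fell by 3.02 (SE 0.47), from 2.60 and 12.3 CPM to 0.117 to 1.66 CPM with a median of 1.17 CPM. Without untreated replicate 2, the higher of the pair, SEMA6B fell by 1.499 and still passed, and without untreated replicate 1 the log2 fold change of NRP1 was -5.001. EPHA8 fell by 1.96 (SE 0.32) and UNC5D by 2.13 (SE 0.39).

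Rises on films were of PLXNB1 by 1.45 (SE 0.16), NTNG2 by 1.33 (SE 0.26), SEMA6D by 0.99 (SE 0.12), PLXNA3 by 0.93 (SE 0.17), SEMA4F by 0.91 (SE 0.13) and PLXNA2 by 0.90 (SE 0.18). SEMA6D is a ligand of PLXNA1, which itself fell by 0.81 (SE 0.13) on the log2 scale. SEMA6D stood at 21.2 and 21.1 CPM untreated and at 37.6 to 47.7 CPM (median 41.9) on the 6 unstimulated film libraries, with no overlap. EPHB6 had 99 counts over these film libraries against 2 untreated, a 16.1-fold ratio (95% interval of the counts 4.33 to 135). The other rises were of SEMA3A (1.15), SEMA6C (0.81), PLXNB3 (0.72), EPHB3 (0.71), EFNB3 (0.47) and EPHA10 (0.39). The other falls were of NTN4 (-1.91), SEMA5B (-1.83), EPHA2 (-1.68), EFNA4 (-1.41), PLXNC1 (-1.20), EFNB1 (-1.05), PLXND1 (-0.99), EFNA1 (-0.86), UNC5A (-0.60) and UNC5B (-0.57). Calls were lost without untreated replicate 1 for EFNA4 and PLXNC1 and without untreated replicate 2 for EPHB6, PLXND1, UNC5A and UNC5B, and those of SEMA3A and EPHA10 with 5 and 7 of the 8 libraries left out in turn. The mesenchymal list had 2 of 12 genes higher and 8 lower in this comparison. All 8 proliferation genes fell, to sums of 319 to 646 CPM on the unstimulated films. Of the 9 neuroblast markers 1 rose and 6 fell, to sums of 3900 to 4740 CPM. The part of these lists was again not tested.

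In the direct comparison of films with plates both had the same schedule of serum, retinoic acid and BDNF. Whether they differentiated to the same extent was not tested. Secreted semaphorins SEMA3C and SEMA3D and the plexin PLXNA2 were higher on films, and the neuropilin NRP2 and the membrane-bound SEMA6A were lower. For the mean of the 3 unstimulated films 9 of the 55 rose, against 4.46% of all genes, and 4 fell, against 3.79%. The median log2 fold change of the 55 was 0.08 and that of all genes -0.03, with median sizes of 0.35 and 0.25. Leaving out any single library of the plates or unstimulated films gave fewer calls among the 55 and among all genes. Both were fewest without plate replicate 1.

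SEMA3C, at 12.3 and 8.19 CPM on plates, had 103 and 88.6 CPM on P(rGO), 57.8 and 46.7 on PEDOT:PSS, with 62.8 and 49.0 on ITO. All 6 film libraries lay above both plate libraries and below both untreated ones. The mean log2 fold change over plates was 2.68 (SE 0.31, adjusted p = 0.00022), and by film it was 3.23 (SE 0.34) on P(rGO), 2.35 (SE 0.34) on PEDOT:PSS, with 2.45 (SE 0.34) on ITO. SEMA3C kept its call on each unstimulated film with any 1 library left out.

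SEMA3D, at 2 counts in each plate library, had 3.61 and 3.94 CPM on P(rGO), 2.68 and 2.81 on PEDOT:PSS, with 3.61 and 3.38 on ITO. The 6 film libraries together held 344 counts and the plate libraries 4, a 32.1-fold ratio (95% interval of the counts 12.4 to 119). The log2 fold change was 4.90 (SE 0.66, adjusted p = 0.00065). SEMA3A, which repels many sensory and sympathetic axons, stood at 1.19 and 1.85 CPM on plates, 6.47 and 5.73 on P(rGO) and 9.06 and 5.90 on PEDOT:PSS, and rose by 1.99 (SE 0.52) and 2.29 (SE 0.52) there, at adjusted p-values of 0.045 and 0.046. On ITO its libraries, at 4.38 and 1.51 CPM, overlapped the plates. Each SEMA3A call was lost with any of the 4 libraries compared left out.

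NRP2 was at 5.75 and 6.19 CPM on plates and between 0.573 and 1.09 CPM in the 6 unstimulated film libraries, which did not overlap. It fell by 2.91 (SE 0.25, adjusted p = 3.2e-05), and by film it fell by 3.04 (SE 0.36), 2.79 (SE 0.36) and 2.90 (SE 0.36) on P(rGO), PEDOT:PSS and ITO. NRP1 on the same films was at 0 to 0.816 CPM against 0.163 and 0.0499 on plates and did not pass (adjusted p = 0.92). Exons of both neuropilins overlap an antisense gene; the one opposite NRP1 held no counts, and the one opposite NRP2 reached a group mean of 0.0235 CPM at most.

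SEMA6A had 35.0 and 20.97 CPM on plates and 5.38 to 7.98 CPM in the unstimulated film libraries, a fall of 2.01 (SE 0.19, adjusted p = 5e-05). It fell by 2.15, 1.91 and 1.98 on P(rGO), PEDOT:PSS and ITO. PLXNA2, one receptor of SEMA6A, had 174 and 278 CPM on plates, 409 and 461 on P(rGO), 435 and 456 on PEDOT:PSS, with 524 and 561 on ITO. Its log2 fold change was 1.06 (SE 0.18, adjusted p = 0.0029), and without plate replicate 1, the lower of the pair, it was 0.76 at an adjusted p of 0.081. PLXNC1, the receptor of SEMA7A, fell by 1.43 (SE 0.35, adjusted p = 0.023), from 11.8 and 4.34 to 2.25 to 4.09 CPM, and without plate replicate 1 by 0.54 at an adjusted p of 0.68.

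The promoters of 4 genes are shown as examples of genes whose levels did not overlap between groups: SEMA3C, SEMA3D and NRP2 between plates and unstimulated films, and EPHB4 between untreated and differentiated cells. No window is shown for SEMA6A or NRP1. Each is the 250 bases before the most upstream start listed by RefSeq on GRCh38.p14, written 5′ to 3′ along the gene, with capitals for GGGCGG, the GC box bound by SP1-like factors, on either strand. Windows are chr7:80922390-80922639 for SEMA3C (minus strand, 2 starts listed), chr7:85187057-85187306 for SEMA3D (minus strand), chr2:205682251-205682500 for NRP2 (plus strand, sharing 1 base with an annotated exon) and chr7:100827524-100827773 for EPHB4 (minus strand).
SEMA3C: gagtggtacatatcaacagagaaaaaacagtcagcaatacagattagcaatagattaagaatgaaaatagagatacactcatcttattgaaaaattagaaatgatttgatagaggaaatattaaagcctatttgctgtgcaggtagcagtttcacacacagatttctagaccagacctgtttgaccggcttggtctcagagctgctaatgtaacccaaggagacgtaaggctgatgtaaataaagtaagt
SEMA3D: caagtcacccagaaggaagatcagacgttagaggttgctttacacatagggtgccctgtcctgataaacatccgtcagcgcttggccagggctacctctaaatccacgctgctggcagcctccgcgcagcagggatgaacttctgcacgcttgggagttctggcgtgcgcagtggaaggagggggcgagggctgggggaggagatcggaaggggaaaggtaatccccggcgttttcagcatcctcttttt
NRP2: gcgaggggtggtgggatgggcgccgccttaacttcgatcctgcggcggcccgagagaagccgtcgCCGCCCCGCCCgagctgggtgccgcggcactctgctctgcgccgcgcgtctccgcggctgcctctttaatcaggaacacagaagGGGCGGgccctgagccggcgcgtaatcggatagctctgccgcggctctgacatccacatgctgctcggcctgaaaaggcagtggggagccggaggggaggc
EPHB4: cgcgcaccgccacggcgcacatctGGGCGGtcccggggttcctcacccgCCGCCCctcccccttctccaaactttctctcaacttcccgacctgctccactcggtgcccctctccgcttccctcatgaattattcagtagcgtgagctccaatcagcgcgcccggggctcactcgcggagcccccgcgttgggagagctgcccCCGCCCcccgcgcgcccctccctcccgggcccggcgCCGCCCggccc

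The window of SEMA3C had 36.4% G and C and that of SEMA3D 57.6%, and neither held a GC box. NRP2 had 3, of which 2 overlap by 1 base, and EPHB4 had 4, in windows of 70% and 72.8% G and C. Of the 53 family members with a window, 40 held a GC box (75.5%), against 55.8% of 15841 windows of all genes. AGGTCA, the core site of nuclear receptors such as those of retinoic acid, was in 5 of the 53 (9.43%) and 10.4% of all windows, and in none of the 4 shown. CACGTG was in 4 (7.8% of all windows), while TGANTCA (5% of all) and GCGTGGGCG (0.997% of all) were in none of the 53. A match describes letters in a window and says nothing of binding, and an absent match only that the letters are not there. By GENCODE 29 on GRCh38 the 4 genes lie at chr7:80742538-80922359 for SEMA3C, chr7:84995553-85186855 for SEMA3D, chr2:205681990-205798133 for NRP2 and chr7:100802565-100827521 for EPHB4. GENCODE 29 has a transcript of NRP2 that starts upstream of the RefSeq start, so the NRP2 window lies within that gene.

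Other rises on films were smaller. SEMA6D went from 27.4 and 29.4 CPM on plates to 37.6 to 47.7 CPM, at a log2 fold change of 0.57 (SE 0.12, adjusted p = 0.01), and lost its call without plate replicate 1. EPHB3, a receptor of B-class ephrins, rose by 0.72 (SE 0.17, adjusted p = 0.021), from 16.6 and 24.5 to 28.0 to 49.1 CPM, and lost its call without plate replicate 1 or PEDOT:PSS replicate 2. NTNG1 rose by 2.58 (SE 0.62, adjusted p = 0.021), from 4 and 6 counts on plates to 0.957 to 2.51 CPM, and lost its call without either plate library. EPHA6 rose by 1.07 (SE 0.29, adjusted p = 0.038) and EFNB2 by 0.47 (SE 0.13, adjusted p = 0.043). EFNB2 had 166 and 194 CPM on plates and 230.1 to 266 CPM on films, without overlap, yet its call was lost with any of the 8 libraries left out, and that of EPHA6 with 6 of the 8. EPHA8 fell by 1.25 (SE 0.33, adjusted p = 0.034) with overlapping groups, and leaving out 7 of the 8 libraries in turn ended that call.

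**Figure D3:**
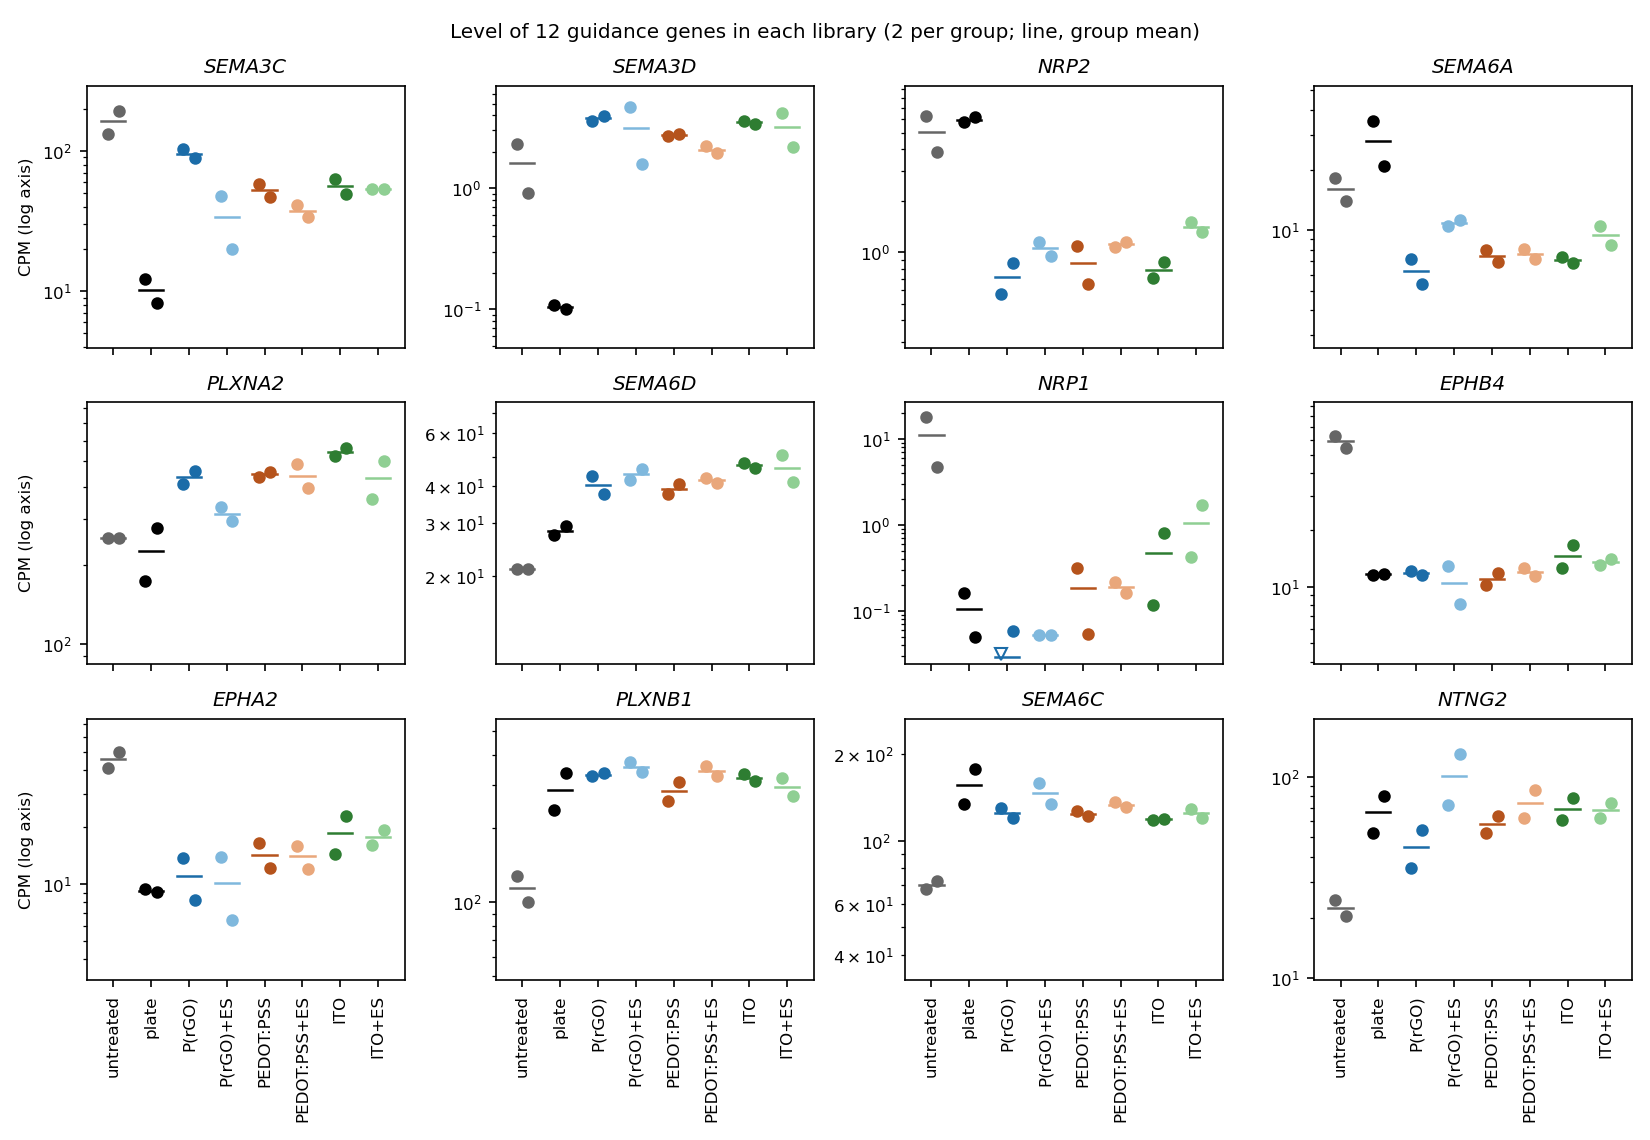
CPM on log axes of 12 guidance genes in each of the 16 libraries, 2 per group, with the group mean as a line; +ES marks stimulated films, and an open triangle at the bottom is a library with 0 counts. SEMA3C and SEMA3D are lowest in the 2 plate libraries, NRP2 and SEMA6A are lower on all films than on plates, and NRP1, EPHB4 and EPHA2 are highest in untreated cells.

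Film by film, 5 of the 55 rose and 2 fell on P(rGO), against 2.99% and 1.64% of all genes. On PEDOT:PSS 4 rose and 2 fell (1.02% and 0.454% of all genes), and on ITO 6 rose and 3 fell (2.5% and 1.73%). These comparisons share the plate libraries. The calls on P(rGO) were SEMA3C, SEMA3D, PLXNA2, SEMA3A and NTNG1 (log2 fold change 2.63, SE 0.70) upwards and NRP2 and SEMA6A downwards. Those on PEDOT:PSS were SEMA3C, SEMA3D, PLXNA2 and SEMA3A upwards and NRP2 and SEMA6A downwards. On ITO SEMA6D (0.72, SE 0.14), EPHB3 (1.00, SE 0.20) and NTNG1 (2.87, SE 0.69) joined SEMA3C, SEMA3D and PLXNA2, and EPHA8, an EphA receptor, fell with NRP2 and SEMA6A, by 2.14 (SE 0.46, adjusted p = 0.019). EPHA8 had 4.94 and 10.3 CPM on plates and 2.66 and 0.816 CPM on ITO, and its log2 fold change ranged from -3.22 (without ITO replicate 1) to -1.49 (without plate replicate 2).

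Without plate replicate 1, and without either library of the film itself, fewer guidance genes and fewer of all genes were called on each film. A fit without the 2 untreated libraries called 13, 10 and 14 on P(rGO), PEDOT:PSS and ITO, with 2183, 954 and 1722 of all genes. On PEDOT:PSS the calls of SEMA3D and SEMA6A were lost without plate replicate 1 or PEDOT:PSS replicate 2 and that of NRP2 without PEDOT:PSS replicate 2. PLXNA2 lost its call on each film without plate replicate 1, and on P(rGO) and PEDOT:PSS also without either library of the film. NTNG1 lost its call on P(rGO) and ITO with any of the 4 libraries left out, and on ITO EPHB3 did so without plate replicate 1 or ITO replicate 2, EPHA8 without replicate 2 of either group, and SEMA6D without plate replicate 1 or either ITO library. Of the 12 tested mesenchymal and fibroblast markers 4 rose and 1 fell on films against plates, with sums of 241 to 376 CPM on unstimulated films and 238 to 261 CPM on plates. LUM, the matrix protein lumican, was at 2.42 ± 0.81 CPM on plates and 26.9 ± 2.2 on P(rGO), 18.1 ± 0.33 on PEDOT:PSS, with 19.4 ± 6.1 on ITO (SD, n = 2). PDGFRA, on the same list, went the other way. It was at 77.8 ± 31 CPM on plates and 18.1 ± 3.3 on P(rGO), 26.2 ± 10 on PEDOT:PSS, with 21.4 ± 1.1 on ITO (SD, n = 2). None of the 9 neuroblast markers rose and 3 fell on films against plates, with sums of 3900 to 4740 CPM on unstimulated films and 5190 to 5310 CPM on plates. DBH, the enzyme that makes noradrenaline, had group means of 452 to 662 CPM on the unstimulated films and 981 CPM on plates. The part of these markers in the film results was not tested.

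Between the unstimulated films no guidance gene passed the test, and none of the 18081 genes did (0% called). At an unadjusted p under 0.05 by edgeR there were 1 of the 55 (243 of all genes) for PEDOT:PSS against P(rGO), 5 (299) for ITO against P(rGO) and 4 (283) for PEDOT:PSS against ITO, and DESeq2 called none of the 55. SEMA3C was lower than on P(rGO) by 0.87 (SE 0.31) on PEDOT:PSS and by 0.77 (SE 0.31) on ITO, with libraries that did not overlap, at an adjusted p of 1 in both. EPHA8 on ITO differed from P(rGO) by -1.61 (SE 0.47, unadjusted p = 0.0039, edgeR).

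Stimulated films were compared with the same plates. On P(rGO) 3 of the 55 rose and 2 fell, against 0.835% and 0.841% of all genes. On PEDOT:PSS 3 rose and 2 fell (0.791% and 0.459%), and on ITO 5 rose and 3 fell (1.44% and 0.741%). NRP2 fell on P(rGO), PEDOT:PSS and ITO by 2.50 (SE 0.34), 2.42 (SE 0.34) and 2.08 (SE 0.33), and SEMA6A by 1.37 (SE 0.25), 1.88 (SE 0.26) and 1.56 (SE 0.25). SEMA3D rose by 4.82 (SE 0.71), 4.24 (SE 0.74) and 4.85 (SE 0.71), and SEMA3C by 1.73 (SE 0.33), 1.88 (SE 0.33) and 2.38 (SE 0.34). The remaining calls were SEMA6D on P(rGO) (0.63, SE 0.14) and on ITO (0.70, SE 0.14), PLXNA2 on PEDOT:PSS (0.97, SE 0.21) and on ITO (0.93, SE 0.21), and NTNG1 (2.86, SE 0.68) and EPHA8 (-1.85, SE 0.45) on ITO.

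These counts depended on single libraries, and so did the counts over all genes. Without plate replicate 1, and without either stimulated library, fewer guidance genes and fewer of all genes were called on each film. Of the calls on stimulated films, only that of SEMA3C on ITO was kept with each of the 4 libraries compared left out in turn. Those of SEMA3D and SEMA3C on PEDOT:PSS, SEMA6D on P(rGO), and NTNG1 and EPHA8 on ITO were lost with any of the 4. NRP2 lost its call on PEDOT:PSS and ITO without either stimulated library, and on P(rGO) without replicate 1 of either group. The log2 fold change of SEMA3C on stimulated P(rGO) was 0.98 without stimulated replicate 1 and 2.22 without stimulated replicate 2.

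The last question was what stimulation changed on a given film. By edgeR no guidance gene passed on any film, in the mean over films or in the test of a difference between films, and no gene of the 18081 did (0% called in each). At an unadjusted p under 0.05 there were 6 of the 55 (986 of all genes) on P(rGO), 0 (126) on PEDOT:PSS, 2 (293) on ITO, 8 (1021) for the mean and 2 (133) for the difference. DESeq2 called 1 guidance gene, SEMA3C on P(rGO), at a log2 fold change of -1.49 and an adjusted p of 0.015, and none in the other tests. Of all genes DESeq2 called 14 on P(rGO), 7 for the mean and none in the other tests of stimulation.

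SEMA3C on P(rGO) had 103 and 88.6 CPM without and 47.6 and 20.1 CPM with stimulation, a log2 fold change of -1.50 (SE 0.32, edgeR unadjusted p = 0.00032, adjusted p = 0.67). On PEDOT:PSS it had 57.8 and 46.7 against 41.2 and 34.0 CPM (-0.47, SE 0.31), and on ITO 62.8 and 49.0 against 53.2 and 53.2 CPM (-0.07, SE 0.31). The stimulated libraries lay below the unstimulated ones on P(rGO) and PEDOT:PSS and within them on ITO. The difference between films had an unadjusted p of 0.017 and an adjusted p of 1 (edgeR). The summed proliferation genes on P(rGO) were at 319 to 361 CPM without and 155 to 197 CPM with stimulation, and their part in this result was not tested.

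SEMA3A had the smallest p in the mean effect, at -1.20 (SE 0.30, edgeR unadjusted p = 0.0011, adjusted p = 0.64). Its levels with stimulation were 2.77 and 0.904 CPM on P(rGO), 4.21 and 3.87 on PEDOT:PSS, with 1.17 and 1.79 on ITO. Stimulated libraries did not overlap unstimulated ones on P(rGO) and PEDOT:PSS, and did on ITO. NTNG2 on P(rGO) had 35.3 and 54.2 CPM without and 72.4 and 130 CPM with stimulation (1.17, SE 0.29, edgeR unadjusted p = 0.0012), and its values on the other films were 0.35 (SE 0.29) and -0.02 (SE 0.29). DCC, the attractive netrin receptor, had 7 and 23 counts on unstimulated and 0 and 3 on stimulated P(rGO). The sums, 30 and 3, gave a 10.9-fold ratio (95% interval of the counts 3.40 to 55.9). That interval does not cover the spread between libraries, and DCC did not pass (edgeR adjusted p = 0.81).

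**Figure D4:**
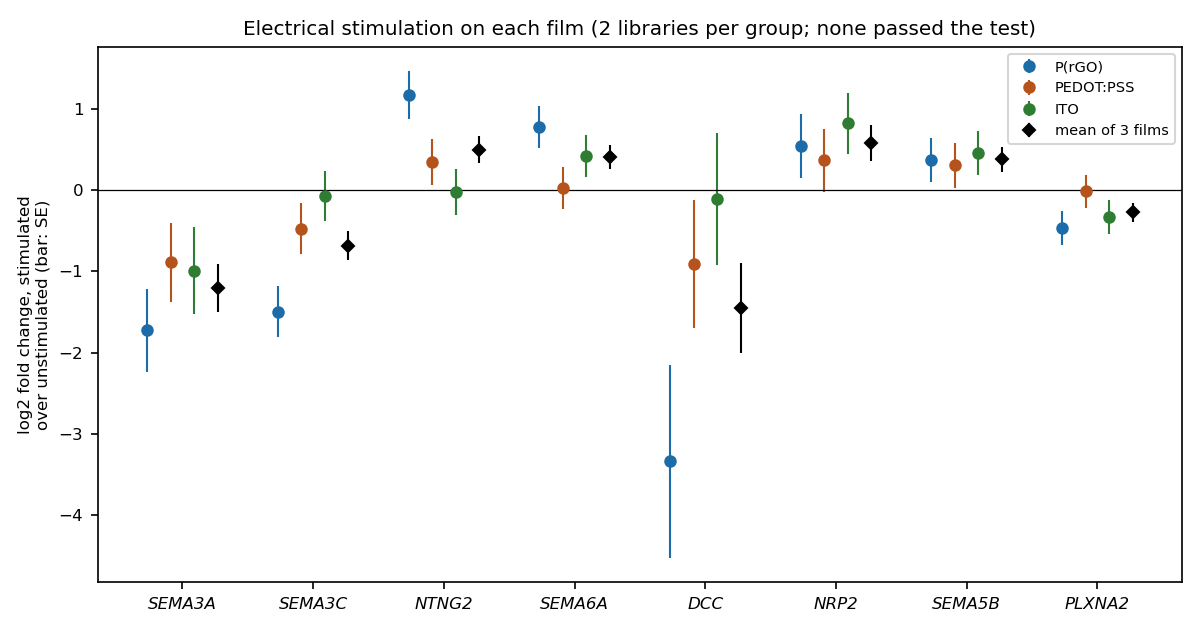
Log2 fold change of stimulated over unstimulated cells (bar: SE) on each film and as the mean of the 3 films, for the 8 guidance genes with an unadjusted p under 0.05 in the mean effect. None passed after adjustment over all genes; SEMA3C runs from -1.50 on P(rGO) to -0.07 on ITO.

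A chosen list of 60 other genes of these pathways held co-receptors, adhesion partners and signal carriers, all of them tested. The list is a selection and not the rest of the pathways. Against untreated cells 10 rose and 12 fell on plates, against 13.8% and 15.8% of all genes, and 16 rose and 10 fell on films, against 20.4% and 24.3%. On plates L1CAM, an adhesion molecule that associates with NRP1, rose by 1.01 (SE 0.18), and MICAL2, an actin-oxidising enzyme, fell by 4.00 (SE 0.66), while NRCAM, which associates with NRP2, fell by 0.78 (SE 0.13). Films against plates gave 5 rises and 4 falls, against 4.46% and 3.79% of all genes. NRCAM (0.92, SE 0.11), VAV3 (1.76, SE 0.22), an exchange factor downstream of Eph receptors, LIMK1, RND2 and RAP1B rose, and TIAM1, GRIP1, RGMB and MET fell. None of the 60 passed in the tests of stimulation or between unstimulated films.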

How the data were processed

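The data are 1 table of polyadenylated RNA read counts per gene. The authors deposited raw counts with 1 column per library, and STAR and HTSeq with the builds GRCh38.p13 and hg38 are named, without versions, per the submitters' processing notes. The kit was directional per the labels' protocols, but the sources used here do not give the strand setting used in counting, and reads of antisense or overlapping genes may be mixed. Exons of 41 of the 64 genes overlap no other gene, those of 19 overlap a gene on the opposite strand and those of 4 a gene on the same strand. The 5 summary rows, 26.1% to 31.8% of reads, were left out. Symbols were found for 62686 of 69222 row IDs, and exon lengths are from GENCODE 29.

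From the counts, edgeR 4.0.16 in R 4.3.3 was used with its default expression filter, trimmed mean of M values scaling and a robust quasi-likelihood model of 1 mean per group over all 16 libraries (8 residual degrees of freedom). A call required an adjusted p (Benjamini-Hochberg, over 18081 genes) no higher than 0.05. Standard errors are the log2 fold change over the root of F, and CPM use the scaled library sizes. Fold changes of genes with few counts depend on edgeR's prior count. For some of these genes ratios of counts with exact 95% intervals, which cover counting error only, stand beside the fold changes. Precision is limited by 2 libraries per group.

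The model was tested on simulated data with 200 of 18081 genes changed. The changed genes were drawn from those with a mean above 1 CPM, so the rates do not cover genes below it. For plate against untreated it recovered 59% of 2-fold and 90% of 4-fold changes, with 9 false among 158 calls. For P(rGO) against plate it recovered 64% and 95%, with 13 false among 172. For the film mean against plate it recovered 64% and 92%, with 9 false among 165. For the mean stimulation effect it recovered 87% and 100%, with 12 false among 199. Whether these rates hold with the biological coefficient of variation of the untreated pair, 36.2% against 6.88% to 18.1% elsewhere, was not tested. Whether they hold with as many changed genes as the 5353 called for plate against untreated was not tested either.

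The genes, the list of partners and the marker lists were chosen with earlier results of these data known. Named with full values are called genes whose groups do not overlap, up to 6 rises and 6 falls in comparisons of plates and films, each called gene elsewhere, and the gene of highest CPM in each family; further genes are named beside their family. Alternatives were relative log expression scaling, DESeq2 1.42.0, no count filter, each library left out, a replicate block, and fitting the compared groups alone. A fit without the untreated libraries was chosen after seeing the data. Promoters are from RefSeq, and 53 of the 64 genes had one.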

Additional observations from a re-analysis of the deposited data

How the results depend on the processing

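Across the alternatives no direction of a called gene reversed. Relative log expression scaling gave 25 calls for plate against untreated and 32 for films against untreated, and the same counts as the main fit in the other comparisons. DESeq2 called 13 genes on P(rGO) against plate (1463 of all genes) and 1 for stimulation on P(rGO) (14 of all genes). Without the count filter 12, 10 and 14 genes were called on P(rGO), PEDOT:PSS and ITO against plate, 9, 11 and 13 on the stimulated films, 1 for PEDOT:PSS against P(rGO), 2 for ITO against P(rGO), 4 for stimulation on P(rGO), 4 for its mean effect (SEMA3A, SEMA3C, DCC and NTNG2) and 1 for its difference between films. All genes called moved too, from 838, 267 and 764 to 1625, 872 and 1430 on the 3 films against plate and from 0 to 168 for stimulation on P(rGO) and 137 for its mean effect. The cause was not tested. A fit of only the groups compared, with fewer libraries, called 5 for plate against untreated (320 of all genes, against 5353), 2 for stimulated P(rGO) and 4 for stimulated ITO against plate. Calls rose in 2 other comparisons with plates. They were 18 for the film mean (2922 of all genes, against 1492) and 9 for P(rGO) (970 of all genes, against 838). Without the untreated libraries, an alternative added after seeing the data, 13, 10 and 14 were called on P(rGO), PEDOT:PSS and ITO and 9 on each of stimulated P(rGO) and PEDOT:PSS, with 2183, 954 and 1722 of all genes on the unstimulated films.

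Leaving out 1 library gave 17 to 31 calls for plate against untreated, 31 to 34 for films against untreated, 4 to 7 for P(rGO), 1 to 5 for PEDOT:PSS, 5 to 8 for ITO and 4 to 11 for the film mean against plate, and 0 to 5, 0 to 4 and 2 to 6 for stimulated P(rGO), PEDOT:PSS and ITO. Where that leaves a group with 1 library, the library is assumed to vary like the other groups. Counts over all genes moved in these fits as well, and fell in each comparison with plates when plate replicate 1 was left out. Of 632 results for single genes 472 kept their call and 160 lost it.

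Same-numbered libraries correlated at -0.25 to 0.42 over 28 pairs of groups, above 0.1 in 16; among the 6 film groups the 15 pairs lay between 0.051 and 0.42. Of these film pairs 13 exceeded 0.1. Since not every pair of groups did, the main fit did not pair the libraries by number. That choice does not show that the film libraries are unpaired. The replicate block moved calls to 28 (5492 of all genes) for plate against untreated, 34 (8210) for films against untreated and 14 (1669) for films against plate. It added UNC5B (adjusted p = 0.029, edgeR) and EPHA6 (0.033) for plate against untreated, and SEMA3D (0.026) and EFNB2 (0.035) for films against untreated, where EPHA10 was lost (0.055). On P(rGO) against plate the block called 8 (938 of all genes), keeping 6 of 7, with NTNG1 lost (adjusted p = 0.059, edgeR). On stimulated ITO against plate it called 7 (502 of all genes), keeping 6 of 8, with EPHA8 and NTNG1 lost (0.058 each).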

Other observations

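The labels give every replicate 1 the prefix NB33 and every replicate 2 the prefix NB34, and some guidance genes differed with that number in all 7 differentiated groups. Replicate 2 was the higher of the pair in all 7 for SEMA5A, PLXNA4, EPHA6 and NTNG2, 4 of the 55 (7.27%, against 4.25% of all tested genes), and replicate 1 for SEMA3B, SEMA4A and EFNB1 (5.45%, against 3.59%). These genes were chosen after their values were seen. SEMA5A, a membrane-bound semaphorin, had 23.7 and 36.1 CPM on plates, 24.1 and 55.0 on PEDOT:PSS and 29.6 and 62.0 on stimulated ITO, but 48.1 and 28.7 CPM in untreated replicates 1 and 2. PLXNA4, a plexin for class 3 and class 6 semaphorins, had 110 and 244 CPM on stimulated ITO and 154 and 90.8 CPM untreated. The labels do not say what the prefixes stand for.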
